A study of Mus musculus with 3 samples.

Results

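The receptors of the TGF-beta, activin and BMP ligands were followed at the mRNA level in the CH12 line of mouse B lymphoma cells, a common model of immunoglobulin class switching. The 10 receptor genes were taken as a list of names: Tgfbr1, Acvr1, Acvr1b and Bmpr1a (type I), Tgfbr2, Acvr2a, Acvr2b and Bmpr2 (type II), and the co-receptors Tgfbr3 and Eng. All 10 had a row among the 24901 gene rows. Of these, 7 were measured, which means at least 1 CPM (counts scaled to the size of the library) and 30 counts in at least 1 library, as were 10754 genes in all. Acvr1, Tgfbr3 and Eng were below that minimum.

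The series is titled for Smad3 and Smad7 in these cells, and the data used here are 3 poly(A) mRNA libraries. The control library came from CH12 cells labelled only as control, and the other 2 from CH12 cells given TGFb at 5 ng/ml for 6 h or for 24 h. All came from the same line grown in serum-containing medium, so the control cells met the factors of serum too. Each group had 1 library, so no value has a replicate check and no test was possible; intervals are exact 95% counting intervals, which leave out differences between cultures. The labels give no time for the control, and time in culture cannot be told apart from treatment.

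The libraries held between 27487221 counts (24 h) and 64229801 counts (6 h). Values between libraries are normalized CPM, scaled by TMM factors, and values between genes are TPM, the authors' estimate per transcript length. The 8 B cell markers that had a row were all measured, with a summed level of 1387 to 1617 CPM in each library, but 1 of them, the B cell lectin Cd22, was lower with TGFb at 139, 37.0 and 15.6 CPM. Sums of markers of other cell types were higher with TGFb. In the order control, 6 h, 24 h, which all later runs of values keep, 9 endothelial markers summed to 11.4, 19.8 and 28.2 CPM, of which the receptor gene Acvrl1 made up 7.80, 12.5 and 16.0 CPM, and Cldn5 had 0 counts throughout. The sum of 8 myeloid markers was 25.5, 34.4 and 59.9 CPM, with Lyz2 at 0 counts in both TGFb libraries, and that of 7 fibroblast markers was 1.48, 3.62 and 5.62 CPM, with Lum at 0 counts throughout. Lck made up most of the T cell sum of 156, 259 and 261 CPM, while Cd4, the other measured T cell marker, was at least 2-fold lower at both times with 2.90, 1.17 and 1.03 CPM. The part of such markers in the receptor values was not tested, and in bulk RNA a change in the number of cells of a type and a change of RNA per cell cannot be told apart.

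Ligands of the TGF-beta family bind complexes of type I and type II receptors, which are transmembrane serine/threonine kinases. The type II kinase phosphorylates the type I receptor, and the type I kinase in turn phosphorylates receptor Smads, which join Smad4 and act on genes in the nucleus. Co-receptors present ligand but have no kinase domain. In B cells, TGF-beta restrains growth and directs class switching to IgA.

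Tgfbr1, the type I receptor that carries the TGF-beta signal to Smad2 and Smad3, stood furthest from control among the 7 measured receptors. The gene lies on chromosome 4 (47353222 to 47414926, GRCm38). Its counts were 1988, 14498 and 8561, or 40.9, 225 and 295 CPM. Both TGFb libraries stood above control, and the 24 h library stood above that at 6 h. The gene was 5.51-fold higher at 6 h (interval 5.26 to 5.78) and 7.21-fold higher at 24 h (6.87 to 7.58). Ranked by ratio among the 10754 measured genes, it was number 31 at 6 h and number 68 at 24 h.

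Acvr1b, the type I receptor for activin, shares its Smad2 and Smad3 substrates with Tgfbr1 (chromosome 15, 101174072 to 101213684). Its levels were 9.90, 22.6 and 32.3 CPM, in the same order of libraries as Tgfbr1 but from a lower start. It was 2.29-fold higher at 6 h (2.06 to 2.54) and 3.26-fold higher at 24 h (2.92 to 3.65). The fold of control of Tgfbr1, divided by that of Acvr1b, was 2.41 at 6 h (2.15 to 2.70) and 2.21 at 24 h (1.96 to 2.50). In such a ratio of 2 folds the scaling of the libraries cancels. A trend with transcript length, described further on, does not cancel, and it was not removed from these ratios or their intervals.

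Bmpr1a, a type I receptor for BMPs that acts on Smad1, Smad5 and Smad9 (chromosome 14, 34411061 to 34503336), stood near its control level. Its levels were 136, 139 and 141 CPM. The ratio was 1.02 at 6 h (0.992 to 1.06) and 1.04 at 24 h (1.00 to 1.08), and it went below 1 in both comparisons once the trend with transcript length, described further on, was removed. The ratio of the fold of Tgfbr1 to that of Bmpr1a was 5.38 at 6 h (5.09 to 5.70) and 6.93 at 24 h (6.51 to 7.38).

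Acvr1, another type I receptor for BMPs (chromosome 2, 58446438 to 58566828), had 0 counts in each library. At these depths 3 counts would have been 0.0617, 0.0466 and 0.103 CPM, and levels under that were not detectable. Bmpr1a was thus the 1 measured BMP type I receptor of the list.

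**Figure D1:**
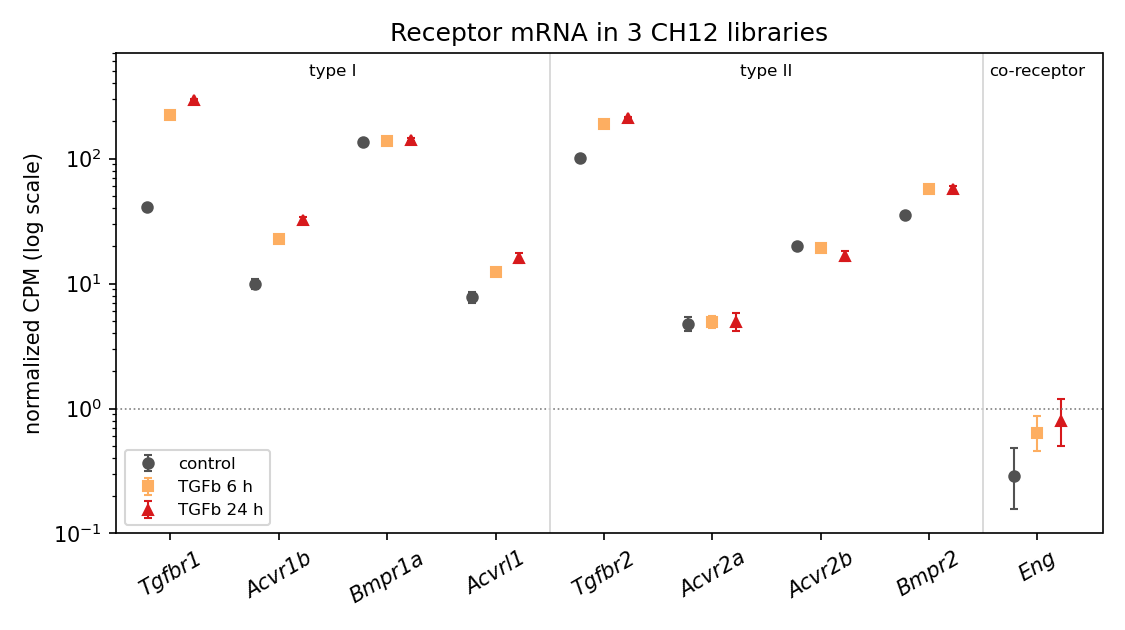
Normalized CPM of 8 of the 10 receptors and of Acvrl1 in each library, on a log axis, by receptor class. Circles are control, squares TGFb for 6 h and triangles TGFb for 24 h, with 1 library each, and bars are exact 95% counting intervals. The dotted line marks 1 CPM. Tgfbr1 lies between 40.9 and 295 CPM, while Bmpr1a lies between 136 and 141 CPM.

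Among type II receptors, Tgfbr2, which binds TGF-beta and activates Tgfbr1, was the furthest above control (chromosome 9, 116087695 to 116175363). It had 4897, 12163 and 6138 counts, or 101, 189 and 212 CPM. Both TGFb libraries lay above control and differed less from each other. The gene was 1.88-fold higher at 6 h (1.82 to 1.94), under the limit of 2-fold used here, and 2.10-fold higher at 24 h (2.02 to 2.18). With the length trend removed it was 1.83-fold higher at 24 h, and thus under the limit. The ratio of the fold of Tgfbr1 to that of Tgfbr2 was 2.94 at 6 h (2.77 to 3.11) and 3.44 at 24 h (3.23 to 3.65).

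Bmpr2, a type II receptor for BMPs (chromosome 1, 59764279 to 59878081), had 35.2, 56.6 and 57.2 CPM. Its level was above control in both TGFb libraries, whose counting intervals overlapped. It was 1.61-fold higher at 6 h (1.52 to 1.71) and 1.63-fold higher at 24 h (1.52 to 1.74). Its transcript was the longest of the set at 11087 bases. With the length trend removed, these were 1.29-fold and 1.11-fold.

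Both activin type II receptors were within 2-fold of control. Acvr2b, which binds activins and related ligands (chromosome 9, 119401583 to 119442148), had 19.9, 19.4 and 16.5 CPM. Its ratio was 0.977 at 6 h (0.898 to 1.06), above 1 with total counts and with TPM, and at 24 h it was 1.20-fold lower (1.08 to 1.34). Its log2 ratio at 24 h was -0.26, beside -0.0051 with TPM and -0.80 with the length trend removed. Acvr2a (chromosome 2, 48814109 to 48903264) had 4.75, 4.90 and 4.93 CPM, with ratios of 1.03 (0.867 to 1.23) and 1.04 (0.836 to 1.28) that went below 1 with the length trend removed.

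The ratio of the fold of Acvr1b at 24 h to that of Acvr2b was 3.92 (3.35 to 4.57), and to that of Acvr2a 3.14 (2.48 to 3.98). The length trend was not removed from these ratios. At 24 h it was 0.014 on the log2 scale at the length of Acvr1b, 0.54 at that of Acvr2b and 0.21 at that of Acvr2a. Acvr2a was also the 1 measured member whose counts were not whole (230.61 in control), so some of its reads were shared with another gene. Its end overlaps Orc4, a replication gene that starts at 48902824 and had 2282, 2757 and 1097 counts. The strand setting of the counting is not given in the sources used here, and reads from the shared stretch may belong to either gene. LncRNA genes also overlap Tgfbr1 (Gm32435, 47352314 to 47386146, which covers its start) and Tgfbr2 (Gm31292, 116145369 to 116149794). Neither lncRNA has a row of counts, so no reads were assigned to them. Whole counts of the 2 receptors thus do not tell whether reads from these lncRNAs were counted for them.

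The co-receptors were scarce. Tgfbr3, or betaglycan, which presents TGF-beta and binds inhibin, had 1, 1 and 0 counts, so no difference could be measured (chromosome 5, 107106567 to 107289629). Eng, or endoglin, a co-receptor best known from blood vessels (chromosome 2, 32646595 to 32682669), had 14, 41 and 23 counts, or 0.288, 0.637 and 0.793 CPM. Its ratio was 2.21 at 6 h with a wide interval (1.18 to 4.39) and 2.75 at 24 h (1.36 to 5.78). It overlaps the end of Fpgs, which had 4908, 4614 and 1541 counts. The sums of endothelial and myeloid markers were higher in the same libraries, as given above. Of the 3 measured endothelial markers, which include Acvrl1, 1 was at least 2-fold higher at 6 h and 3 at 24 h. Of the 4 measured myeloid markers, 0 were at least 2-fold higher at 6 h and 3 at 24 h. The shares over all measured genes were 2.4% and 7.41%. The part of such markers in the values of Eng was not tested.

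Of the 7 measured receptors, 2 were at least 2-fold higher at 6 h (Tgfbr1 and Acvr1b) and 0 were lower. Of all measured genes, 2.4% were at least 2-fold higher at 6 h and 0.363% lower. At 24 h, 3 of the 7 were higher, with Tgfbr2 added, and 0 were lower. The shares over all measured genes were then 7.41% higher and 2.02% lower, from 797 and 217 genes, or from 1075 and 118 genes with total counts and 1235 and 82 with TPM. The median log2 ratio of the 7 receptors was 0.69 at 6 h and 0.70 at 24 h, beside -0.005 and -0.01 over all measured genes. That median was the value of Bmpr2, the longest transcript of the set. With the length trend, described further on, removed, the median of the 7 was 0.37 at 6 h and 0.15 at 24 h. The comparisons at 6 h and at 24 h use the same control library and so are not independent. The receptors were chosen with earlier results of these data known, so these counts are not a test of receptors against all genes.

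**Figure D2:**
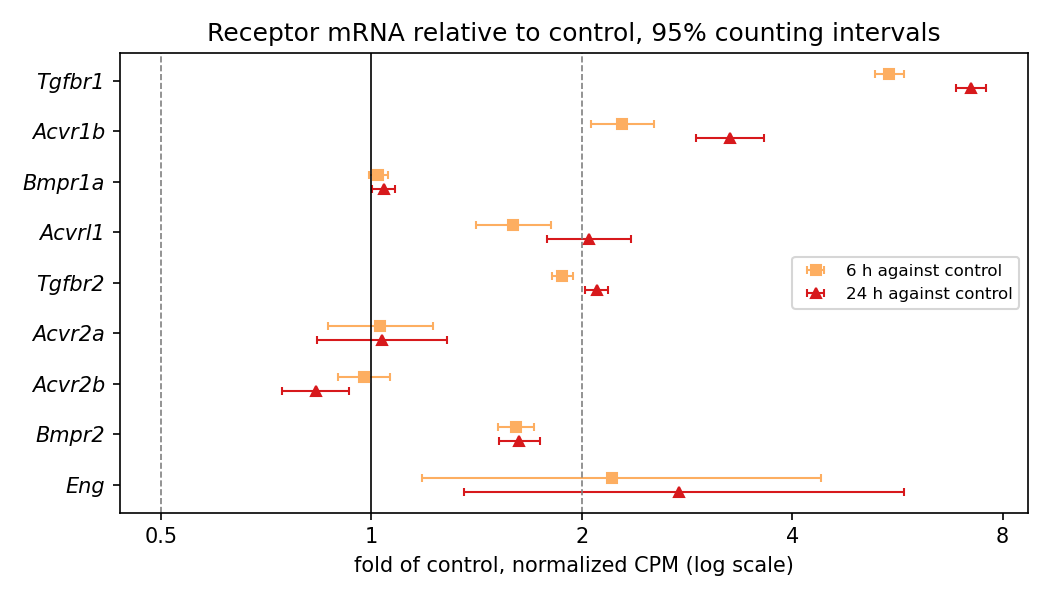
Fold of control for the measured receptors, Eng and Acvrl1 at 6 h (squares) and 24 h (triangles), on a log axis. Bars are exact 95% counting intervals, with 1 library per group. Acvr1 and Tgfbr3, which have no ratio, are not shown. Dashed lines mark the 2-fold limit in either direction. Tgfbr1, at 5.51 and 7.21, and Acvr1b, at 2.29 and 3.26, lie past the limit at both times, and Acvr2a, Acvr2b and Bmpr1a lie near 1. Eng, which is below the minimum, lies at 2.21 and 2.75 with wide intervals.

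Between 6 h and 24 h of TGFb, none of the 7 measured receptors differed by 2-fold, while 1.87% of measured genes were at least 2-fold higher and 0.372% lower. Acvr1b was 1.43-fold higher at 24 h than at 6 h (1.31 to 1.55), Tgfbr1 1.31-fold (1.27 to 1.34) and Tgfbr2 1.12-fold (1.08 to 1.15). Bmpr2 had a ratio of 1.01 (0.954 to 1.07) and Bmpr1a of 1.02 (0.980 to 1.06), and Acvr2b was 1.17-fold lower (1.06 to 1.31). For Tgfbr1, Acvr1b, Tgfbr2 and Bmpr2, most of the distance from control was thus present at 6 h. With the length trend removed, Bmpr2 had log2 ratios of 0.37 at 6 h and 0.15 at 24 h against control.

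**Figure D3:**
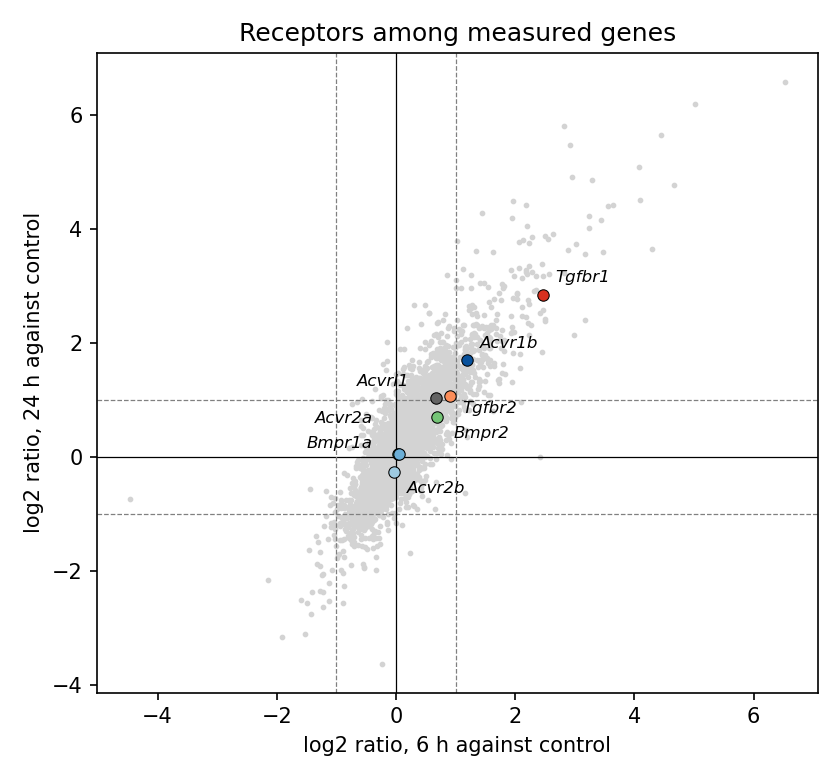
Log2 ratio at 6 h (x axis) and 24 h (y axis) against the shared control for the 10754 measured genes (grey) with the 7 measured receptors and Acvrl1 marked. Dashed lines mark the 2-fold limit. Tgfbr1 lies at 2.46 and 2.85, towards the upper right end, Acvr1b at 1.19 and 1.70, and Acvr2a and Bmpr1a near the centre at 0.04 and 0.05, and 0.03 and 0.06.

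Per transcript length, the order of the receptors differed between libraries. In control Bmpr1a was the most abundant at 37.8 TPM (36.9 to 38.7), followed by Tgfbr2 at 32.6 TPM (31.7 to 33.5) and Tgfbr1 at 10.8 TPM (10.4 to 11.3). Bmpr2 and Acvr1b came next at 4.76 and 4.71 TPM, which did not differ beyond their counting intervals, then Acvr2b at 2.82 TPM, Acvr2a at 1.27 TPM and Eng at 0.13 TPM. At 6 h Tgfbr2 and Tgfbr1 led with 68.0 TPM (66.8 to 69.2) and 66.7 TPM (65.6 to 67.8), whose intervals overlapped, and Bmpr1a followed at 43.2 TPM. At 24 h Tgfbr1 was first at 93.9 TPM (91.9 to 95.9), Tgfbr2 came next at 81.9 TPM (79.8 to 83.9), without overlap of the intervals, and then Bmpr1a at 47.2 TPM.

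The balance within the TGF-beta receptor pair differed between libraries. The ratio of Tgfbr1 to Tgfbr2 on the TPM scale was 0.333 in control, 0.981 at 6 h and 1.15 at 24 h. Together this pair made up 45.7% of the summed TPM of the 10 receptors in control, 66.3% at 6 h and 68.8% at 24 h. The share of Bmpr1a was 39.8%, 21.2% and 18.5%. The summed TPM of the 10 was 94.9, 203 and 256. TPM values for all genes were shifted upwards with TGFb relative to TMM scaling, with a median difference of 0.16 on the log2 scale at 6 h and 0.26 at 24 h, which touches these sums but not the shares.

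The balance of the classes also differed. Summed type I receptors had 53.4 TPM in control and 160 TPM at 24 h, and summed type II receptors 41.4 and 95.5 TPM. The ratio of type I to type II was 1.29 in control and 1.67 at 24 h. Among BMP receptors the ratio of Bmpr1a to Bmpr2 was 7.94, 5.05 and 5.08. The length trend, described further on, was not removed from any of these TPM shares and ratios. At 24 h it was 0.55 on the log2 scale at the length of Bmpr2 and 0.22 at that of Bmpr1a.

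**Figure D4:**
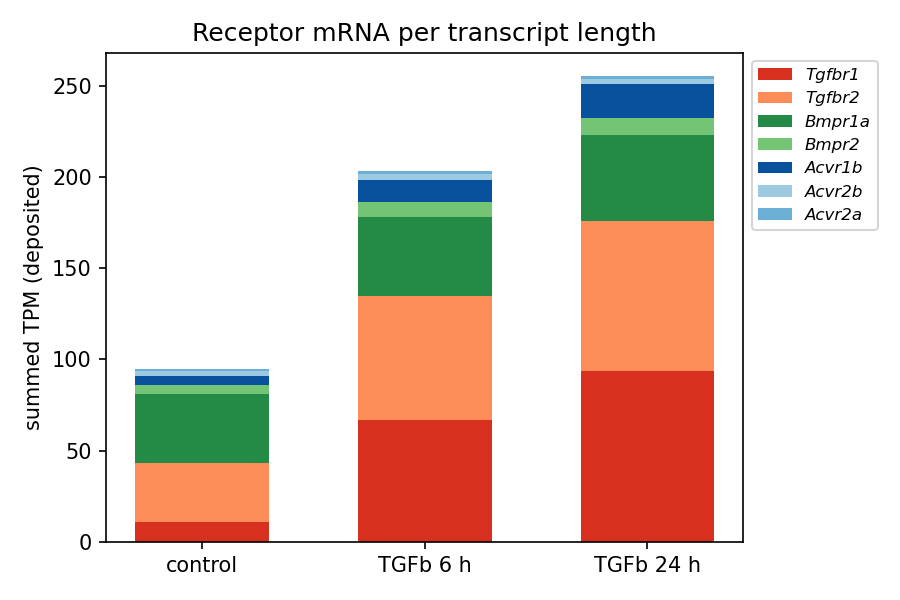
Deposited TPM of the 7 measured receptors stacked for each of the 3 libraries. Eng, Tgfbr3 and Acvr1 are too low to show. Tgfbr1 and Tgfbr2 hold 45.7% of the TPM of all 10 receptors in control and 68.8% at 24 h.

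Start sites were compared for receptors that were higher (Tgfbr1, Acvr1b, Tgfbr2) and 1 that was near control (Acvr2a). The 250 bases before each start are printed from RefSeq on GRCm38.p6, strand of the gene, with capitals for CAGAC or its reverse complement GTCTG, the core of the CAGA box bound by Smad3 and Smad4, and for GGCGC or GCGCC, a GC-rich motif to which Smads also bind. Both strands were searched, and matches may overlap. They lie at chr4:47352972-47353221 (plus strand), chr15:101173822-101174071 (plus), chr9:116175364-116175613 (minus) and chr2:48813859-48814108 (plus).
Tgfbr1: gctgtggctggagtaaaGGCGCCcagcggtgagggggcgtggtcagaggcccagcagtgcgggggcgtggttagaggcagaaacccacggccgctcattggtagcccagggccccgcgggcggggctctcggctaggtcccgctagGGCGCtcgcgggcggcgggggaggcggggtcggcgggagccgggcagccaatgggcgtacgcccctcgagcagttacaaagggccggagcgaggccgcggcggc
Acvr1b: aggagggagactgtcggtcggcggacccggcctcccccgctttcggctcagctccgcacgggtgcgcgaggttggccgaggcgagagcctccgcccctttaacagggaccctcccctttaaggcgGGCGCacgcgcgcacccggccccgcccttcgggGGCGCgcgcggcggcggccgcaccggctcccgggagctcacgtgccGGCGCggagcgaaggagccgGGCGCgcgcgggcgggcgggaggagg
Tgfbr2: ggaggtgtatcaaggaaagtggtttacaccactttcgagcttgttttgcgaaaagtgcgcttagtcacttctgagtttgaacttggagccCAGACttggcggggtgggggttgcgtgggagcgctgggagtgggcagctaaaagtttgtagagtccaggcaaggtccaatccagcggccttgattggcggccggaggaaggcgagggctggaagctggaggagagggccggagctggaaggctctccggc
Acvr2a: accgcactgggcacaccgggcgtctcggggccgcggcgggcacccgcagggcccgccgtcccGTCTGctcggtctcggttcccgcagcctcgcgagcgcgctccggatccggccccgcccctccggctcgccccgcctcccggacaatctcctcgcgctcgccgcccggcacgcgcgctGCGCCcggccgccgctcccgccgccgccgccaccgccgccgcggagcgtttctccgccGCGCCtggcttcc

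The window of Tgfbr1 held 3 matches to GGCGC on either strand and 0 to CAGAC, that of Acvr1b 4 and 0, that of Tgfbr2 0 and 1, and that of Acvr2a 2 and 1. Windows of higher and of near-control receptors alike held matches. Bmpr2 had 2 and 0, and the windows of Acvr2b and Bmpr1a, which lie inside the annotated genes, had 3 and 1, and 4 and 0. Of 32851 RefSeq start sites, 32.02% held GGCGC and 42.19% held CAGAC in a window of this length. The GC content was 74.8% for Tgfbr1, 78.8% for Acvr1b, 58.4% for Tgfbr2 and 82.0% for Acvr2a, beside a median of 52.4% over all start sites. A second RefSeq start of Tgfbr1, inside the gene, has 1 match to CAGAC in the window chr4:47385966-47386215. No entry for Tgfbr3 was matched, and the tables do not tell which start was used.

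The family has 4 receptors outside the list. Acvrl1, a type I receptor for BMP9 and BMP10 in blood vessels (chromosome 15, 101128522 to 101145336), had 7.80, 12.5 and 16.0 CPM. It was 1.60-fold higher at 6 h (1.41 to 1.81) and 2.05-fold higher at 24 h (1.78 to 2.35), and per length it stood above Acvr2b in each library, with 3.33 TPM beside 2.82 TPM in control and 8.16 beside 2.81 TPM at 24 h. It is itself on the endothelial list, of whose 9 genes only Acvrl1, Pecam1 and Cdh5 were measured. Pecam1, an adhesion molecule, had 1.65, 3.51 and 7.34 CPM, and Cdh5, the cadherin of vessel walls, 1.81, 3.61 and 4.62 CPM. Kdr, Tek and Cldn5 had 0 counts in control, Tie1 and Cldn5 at 6 h, and Kdr, Emcn and Cldn5 at 24 h. Acvr1c, Bmpr1b and Amhr2, the receptor of anti-Müllerian hormone, had at most 1, 1 and 9 counts.

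Other genes that act with the receptors were read against the same shares, 2.4% of measured genes higher at 6 h and 7.41% at 24 h. Of 21 regulators that bind or modify receptors, 17 were measured, and 1 was at least 2-fold higher at both times and 0 lower. That gene, Ldlrad4, which keeps Smads from the receptor, had 2.43, 13.4 and 22.1 CPM. Usp11, a deubiquitinase of Tgfbr1, had 33.6, 45.5 and 66.8 CPM. Strap, which binds Smad7 and the receptors, had 452, 364 and 273 CPM, and Ppp1r15a, which brings a phosphatase to Tgfbr1, had 42.2, 32.3 and 26.2 CPM, both lower by less than 2-fold. The median log2 ratio over the 17 was 0.18 at 6 h and 0.09 at 24 h.

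Of 8 Smads, the substrates and partners of the receptors, 6 were measured, and the inhibitory Smad6 and Smad7 were the 2 that were higher at both times. Smad6, which blocks BMP receptors, had 2.76, 7.94 and 9.17 CPM. Smad7, which brings ubiquitin ligases to Tgfbr1, had 28.8, 59.4 and 76.1 CPM. Smad3 had 7.55, 7.28 and 4.62 CPM, and Smad4 69.3, 67.2 and 65.8 CPM. Smad1, a BMP receptor substrate, had 0 counts in each library, while Smad5, another such substrate, was among the 6 measured. The shares over all measured genes were again 2.4% and 7.41%. Of 9 BMP target genes 3 were measured, and 2 of these, Id2 and Smad6, were higher at both times, Id2 with 23.2, 76.1 and 59.1 CPM. Id3 had 85.0, 105 and 162 CPM.

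Of 22 ligand genes 5 were measured, with 0 at least 2-fold higher at 6 h (2.4% of all measured genes) and 1 at 24 h (7.41%), Bmp8a, at only 1.31 CPM and with shared reads. Tgfb1, the TGF-beta made by many immune cells, had 159, 177 and 187 CPM, Tgfb3 1.07, 1.06 and 1.48 CPM, and Amh 3.68, 2.72 and 2.69 CPM. Of 12 co-receptors and pseudoreceptors, 2 were measured and 1 was higher at 24 h. Lrrc32, or GARP, which holds latent TGF-beta on the cell surface, had 11.7, 13.6 and 23.7 CPM and was 2.02-fold higher at 24 h. Tgfbr3l had 1.56, 2.22 and 2.21 CPM.

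The genes whose pair of log2 ratios lay nearest to that of Tgfbr1, among 10265 other genes with at least 30 counts in each library, were Abca1, Gatsl3, Hoxd4, Ttc8 and Ldlrad4. Their Euclidean distances were 0.136, 0.263, 0.278, 0.315 and 0.337 on the log2 scale, over 2 ratios that share the control library. Abca1, an exporter of cholesterol, had 10.8, 55.2 and 82.6 CPM. The homeobox gene Hoxd4 had 7.98, 37.6 and 51.6 CPM. Gatsl3 had 2.92, 13.6 and 19.8 CPM, and Ttc8, a part of the ciliary BBSome, 3.95, 21.1 and 23.0 CPM. All 5 had counts that were whole, as did Tgfbr1.

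Receptor transcripts are long, and log2 ratios went with length across genes. Spearman's rho was 0.397 at 6 h and 0.385 at 24 h over measured genes, which are not independent replicates. The 7 measured receptors had a median length of 5681 bases, beside 2847 over measured genes. At the length of Bmpr2 the running median of all genes was 0.32 at 6 h and 0.55 at 24 h, and at that of Tgfbr1 0.13 and 0.21. With the trend removed, Tgfbr1 had log2 ratios of 2.33 and 2.64 and Acvr1b of 1.17 and 1.69. Tgfbr2 then had 0.77 and 0.87, Bmpr2 0.37 and 0.15, and Acvr2b -0.34 and -0.80.

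**Figure D5:**
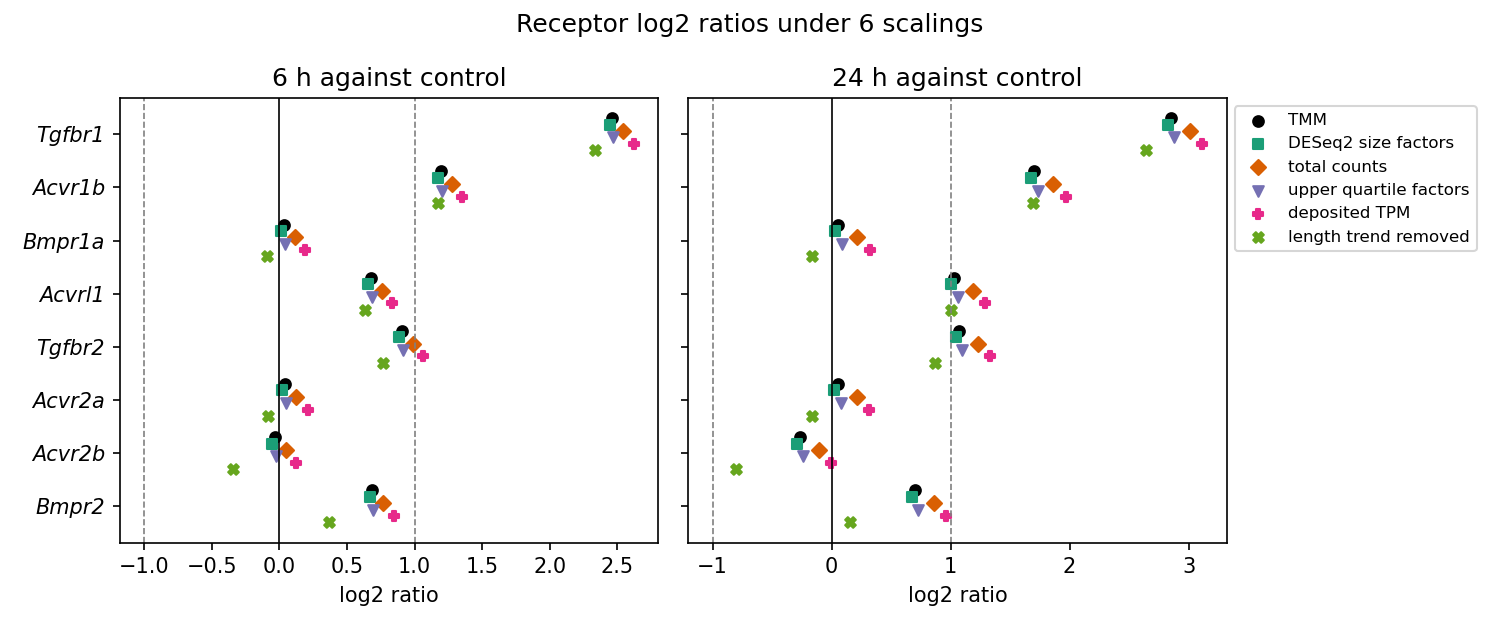
Log2 ratio of each measured receptor and of Acvrl1 at 6 h (left) and 24 h (right) under TMM scaling, 4 other scalings and with the length trend removed, 1 marker shape for each. Dashed lines mark the 2-fold limit. Tgfbr1 and Acvr1b lie past the limit under all 6, Tgfbr2 at 24 h lies at 0.87 with the length trend removed, Acvr2a and Bmpr1a lie on either side of 0, and Acvr2b at 24 h lies between -0.80 and -0.0051.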

How the data were processed

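Poly(A) RNA of 3 CH12 libraries (control, TGFb for 6 h, TGFb for 24 h) was read for 50 cycles, per the labels' protocols. Per the submitters' processing notes, the tools were CASAVA 1.8.2, STAR, RSEM and bedtools, with build mm10. The sources used here do not state the annotation, other versions or the strand setting. Per the file headers, the authors' RSEM tables hold expected counts (estimated, not scaled), TPM and FPKM values and transcript lengths. The deposited FPKM values were not used.

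Expected counts were rounded and scaled by TMM factors (edgeR 4.0.16, R 4.3.3) to normalized CPM. A gene was measured at 1 CPM and 30 counts in at least 1 library, and was counted as higher or lower at 2-fold with that minimum in the higher library. A count of 0 was set to 3 counts. Ratios carry the exact conditional 95% interval (Clopper-Pearson), levels the exact Poisson interval and comparisons between 2 receptors a log-normal interval from their 4 counts. Without molecular identifiers the reads need not be separate molecules, so these intervals cover counting error alone. With 1 library per group there was no test. The size rule was tested on simulated data. Counts within 0.005 of an integer were called whole.

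As alternatives, scaling used size factors of DESeq2 1.42.0, total counts, upper quartile factors or the deposited TPM (minimum 1 TPM). Further alternatives were no minimum, 5 CPM, a 1.5-fold limit, and subtraction of a running median over transcript length (501 genes). Named genes were the receptors, up to 4 measured genes of each list with the largest log2 ratio of CPM + 1 at 24 h in either direction, and the 5 genes nearest to Tgfbr1; cell type markers are mostly given as sums. The receptors and lists were chosen with earlier results of these data known. Positions are from RefSeq on GRCm38.p6, counted from 1.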

Additional observations from a re-analysis of the deposited data

How the results depend on the processing

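Tgfbr1 and Acvr1b were at least 2-fold higher at 6 h and 24 h under each alternative tried, with Tgfbr1 between 5.03-fold and 6.15-fold at 6 h and between 6.24-fold and 8.66-fold at 24 h. Tgfbr2 passed 2-fold at 6 h with TPM (2.09-fold) and under no other alternative, and at 24 h it passed except with the length trend removed. The median log2 ratio of measured receptors at 24 h was 0.86 with total counts. With TPM it was 0.84 at 6 h, 0.96 at 24 h and 0.13 at 24 h against 6 h (0.02 with TMM). Without a minimum, which adds Eng to the ratios, and with 5 CPM, which leaves out Acvr2a, it was 0.80 at 6 h and 0.89 at 24 h, since the set of receptors differs. With the length trend removed it was 0.37 at 6 h, 0.15 at 24 h and -0.061 at 24 h against 6 h, and the cause of the trend was not tested. At 1.5-fold, 4 receptors were higher at 6 h, and 4 at 24 h. Over all genes, that limit gave 728 higher and 230 lower at 6 h (258 and 39 at 2-fold), 1808 and 1274 at 24 h (797 and 217), and 684 and 227 at 24 h against 6 h (201 and 40). Without a minimum these were 771 and 240, 1405 and 438, and 548 and 239, and with 5 CPM 153 and 22, 502 and 174, and 88 and 17. With TPM 23 genes were lower at 6 h, and 1235 were higher and 82 lower at 24 h; with total counts 118 were lower at 24 h. No paired analysis was possible because each group has 1 library. For the same reason no library could be left out. Depth limits Eng, Tgfbr3 and Acvr1, at 27487221 counts in the shallowest library (24 h).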
